A study of Homo sapiens with 16 samples.

Results

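The nuclear-encoded genes of oxidative phosphorylation were examined in ribosome profiling and total RNA libraries of MDA-MB-231 cells, an established human line from a triple-negative breast cancer. They were taken by symbol, as rows named as a subunit of complex I (the NDUFA, NDUFB, NDUFC, NDUFS and NDUFV series), of complex II (SDHA to SDHD), of complex III (CYC1 and the UQCR series), cytochrome c (CYCS), complex IV (the COX4 to COX8 series) or complex V (the ATP5 series). This gave 90 of the 26485 genes listed. There were 37 in complex I, 4 in complex II, 11 in complex III, 18 in complex IV with NDUFA4, 19 in complex V, and CYCS. Of the 90, 83 encode a subunit or cytochrome c. The other 7 match by symbol but are not classed as subunits. They include the pseudogenes UQCRBP1 and ATP5EP2, the copies UQCRHL and ATP5L2, and the supercomplex factor COX7A2L. ATP5S and ATP5SL, also among the 7, are not intrinsic subunits of the synthase. All 7 were kept in the sum of the complex they are named for, and in its median where tested.

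CRISPR interference (CRISPRi), a method that recruits a repressor protein to a chosen locus through a guide RNA, was directed against tRNA-Ile-GAU or against eGFP, the control target. The cells also carried a construct for tRNA-Ile-UAU or a control construct. The 4 conditions were the double modulation (tRNA-Ile-GAU guide with tRNA-Ile-UAU construct), the knockdown (tRNA-Ile-GAU guide with control construct), the overexpression (eGFP guide with tRNA-Ile-UAU construct) and the control (eGFP guide with control construct). Each was measured as ribosome-protected fragments, called footprints here, and as total RNA, in 2 libraries, which made 16 libraries in 8 groups. The labels call the source a xenograft cell line, name this 1 line throughout, and say nothing of clones, of separate cultures or of measured tRNA. The p-values therefore measure only the spread between these libraries, which may be technical. The guide, the tRNA it targets and the cells that received it coincide in the design and cannot be told apart.

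Complexes I to IV form the respiratory chain of the inner mitochondrial membrane. They pass electrons from NADH and succinate by way of ubiquinone and cytochrome c to oxygen, and complexes I, III and IV pump protons as they do so. Complex V, the ATP synthase, lets the protons back and makes ATP. All but complex II also hold subunits encoded in mitochondrial DNA, so that products of 2 genomes are joined in them.

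Gene counts totalled 2512247 to 5446599 per total RNA library. Per footprint library they came to 639320 to 938909 under the tRNA-Ile-GAU guide and to 358340 to 607919 under the eGFP guide, so that depth differed between the guides. Between the total RNA replicates of the double modulation, the chi-square of the counts was 15.3 per gene, against 1.37 to 2.41 in the other 3 conditions and 1.15 to 1.69 in footprints. Results from total RNA are therefore also given without each of these libraries. Levels are given as CPM, counts scaled to a common library total by edgeR's TMM method. VIM, CD44 and AXL, markers of this mesenchymal line, had at least 867 CPM in every library. ESR1, PGR and CDH1, which such cells lack, had at most 2.41 CPM, whereas ERBB2 had 28.9 to 56.3 CPM. Of markers of other cells, PTPRC and MYH7 had at most 2.14 CPM and PECAM1 at most 10.3 CPM, while ACTA1 had 3.49 to 18.2 CPM of footprints and 0 counts in total RNA.

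Footprints were listed for 80 members in all 8 footprint libraries, for ATP5L2 in 6 and for UQCRHL in 3. The 8 others had 0 counts there. They were the pseudogenes UQCRBP1 and ATP5EP2 and every tissue-restricted isoform of complex IV in the list: COX4I2 (lung), COX6A2 and COX7A1 (heart and muscle), and COX6B2, COX7B2 and COX8C (testis). COX4I2, COX6A2, COX7B2 and COX8C were at 0 in total RNA as well, COX6B2 reached 0.668 CPM and COX7A1 2.58 CPM. Their common counterparts COX4I1, COX6A1, COX6B1, COX7A2 and COX8A were detected in all 16 libraries. After the filter on low counts, 79 members were tested in footprints, 79 in total RNA and 78 in both. SDHD, a membrane anchor of complex II, passed only in total RNA and NDUFA7 only in footprints.

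The members took 1.28% of all footprint counts and 0.416% of total RNA counts. Summed over complex I, footprints were 4343 and 4217 CPM in the double modulation, 4713 and 4556 CPM in the knockdown, 4359 and 4393 CPM in the overexpression, and 4772 and 4700 CPM in control. The double modulation and the overexpression, which share the construct, were both below the knockdown and the control, with a log2 difference of -0.11 for the construct against a standard deviation between replicates of 0.02. Complex V sums stayed within 4337 to 4729 CPM, with the 4 conditions overlapping. Complex IV sums were 1670 and 1419 CPM in the double modulation and 1846 and 1779 CPM in control, with the 4 libraries of the other conditions between 1670 and 1778 CPM. Complex III sums were 1556 to 1692 CPM over the 6 libraries of the double modulation, knockdown and overexpression, all below the 1797 and 1702.5 CPM of control. Complex II went the other way, at 349 and 374 CPM in the double modulation against 313 and 273 CPM in control. The knockdown had 295 and 307 CPM there and the overexpression 286 and 363 CPM, so that the overexpression overlapped both. On the log2 scale, the standard deviation between replicates was 0.15 for complex II, 0.09 for complex IV and 0.06 for complexes III and V. These sums were described and not tested.

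In total RNA, the sum of complex V varied least, from 1668 to 1759 CPM. Of its mean of 1713 CPM, ATP5B held 773 and ATP5A1 406 CPM, so that it mostly follows these genes. Smaller members differed in the double modulation. ATP5D had 71.8 and 18.4 CPM there and ATP5G1 19.1 and 2.84 CPM, while ATP5L had 75.9 and 84.5 CPM. The sum of complex IV was 414 and 211 CPM in the 2 double modulation libraries, while the other 6 libraries ran from 200 to 276 CPM. The double modulation thus held both the highest and the second lowest complex IV sum.

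**Figure D1:**
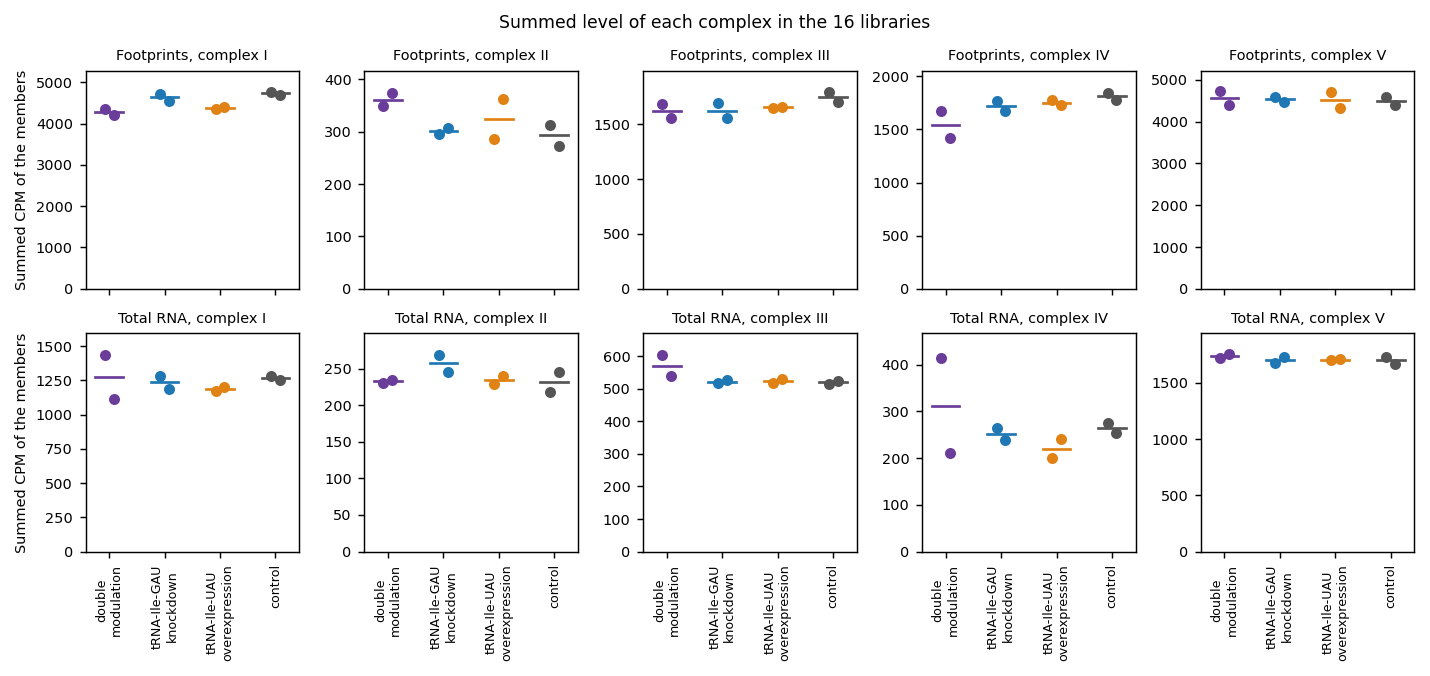
Summed CPM of the members of each complex (vertical axis, CPM; footprints above, total RNA below) in the double modulation, knockdown, overexpression and control. Points are libraries and bars are means of 2 libraries. Footprint sums of complex I lie lower in both conditions with the construct, and the 2 total RNA libraries of the double modulation lie far apart for complex IV, at 414 and 211 CPM.

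Footprints per RNA, the ratio of a gene's footprint CPM to its total RNA CPM, were high for most members. In 1 edgeR fit of both assays averaged over the 4 conditions, the members had a median log2 ratio of 2.42, which is 5.37-fold, against 0.13 over all 8012 genes tested. Of 78 members, 70 were called higher and 3 lower, where 46.7% and 40.4% of all genes were, and 87.1% in either direction, so that a call by itself sets no member apart. Against the distribution of all genes, 39 of the 78 members lay among the highest 10%, which start at 2.44. NDUFS3, at 2.44, was the last member inside it and ATP5I, at 2.41, the first outside. Medians by complex were 3.15 in complexes III and IV, 2.39 in complex V, 2.35 in complex I and 0.13 over the 3 members of complex II. Of other mitochondrial genes, 74 mitochondrial ribosomal proteins had a median of 1.84 and 37 assembly factors 0.94, while 68 cytosolic ribosomal proteins had 0.70.

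The highest ratios belonged to COX7B, a membrane subunit of complex IV (4.81 ± 0.19, SE), CYC1, the heme-bearing cytochrome c1 of complex III (4.66 ± 0.17), NDUFB6 of the complex I membrane arm (4.6 ± 0.11), NDUFA4 (4.43 ± 0.18) and ATP5E, the epsilon subunit of the synthase (4.42 ± 0.23). CYCS, the soluble electron carrier, was at -2.38 ± 0.10 (adjusted p = 3.85e-13), NDUFA5, an accessory subunit of the complex I matrix arm, at -2.22 ± 0.13 (adjusted p = 1.67e-11), and SDHC, a membrane anchor of complex II, at -1.03 ± 0.13 (adjusted p = 6.12e-07). NDUFS1, a core subunit of complex I, was at -0.02 ± 0.07 and UQCRB of complex III at -0.10 ± 0.07, neither apart from 0. Within complex II, SDHB, the iron-sulfur subunit, was at 3.27 ± 0.11 and SDHA, the flavoprotein, at 0.13 ± 0.07.

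Several features of the counts may bear on these ratios. The 5 members with the highest ratios had low total RNA, at 4.53 to 14.2 CPM as means of the 8 libraries. The 5 with the lowest had 66.4 to 251 CPM, and the median over tested members was 23.5 CPM. Among members with high ratios, ATP5J2 had 4 to 23 and NDUFA4 6 to 45 total RNA counts per library. Counts were higher further down, at 70 to 312 for UQCRC1 (rank 17) and 131 to 322 for ATP5C1 (rank 33). Footprints come from the coding sequence and total RNA reads from the whole transcript, and no transcript lengths were used here. Named pseudogenes exist for 51 of the 90 members, with 45 pseudogenes for CYCS, 18 for COX6C and 12 each for NDUFA5 and NDUFB4. CYCS and NDUFA5 had the lowest ratios, while NDUFB4 was at 3.97 and COX6C, the membrane subunit VIc of complex IV, at 2.504. Reads that aligned to several places were not assigned to genes. Of uniquely aligned reads, 62.2 to 65.0% per library in total RNA and 24.8 to 32.6% in footprints fell on no gene feature. The spans of 35 of the 90 members overlap another gene, among them NDUFB6 and ATP5E with high ratios and NDUFA5 with a low one. The part of these features in the ratios was not tested.

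**Figure D2:**
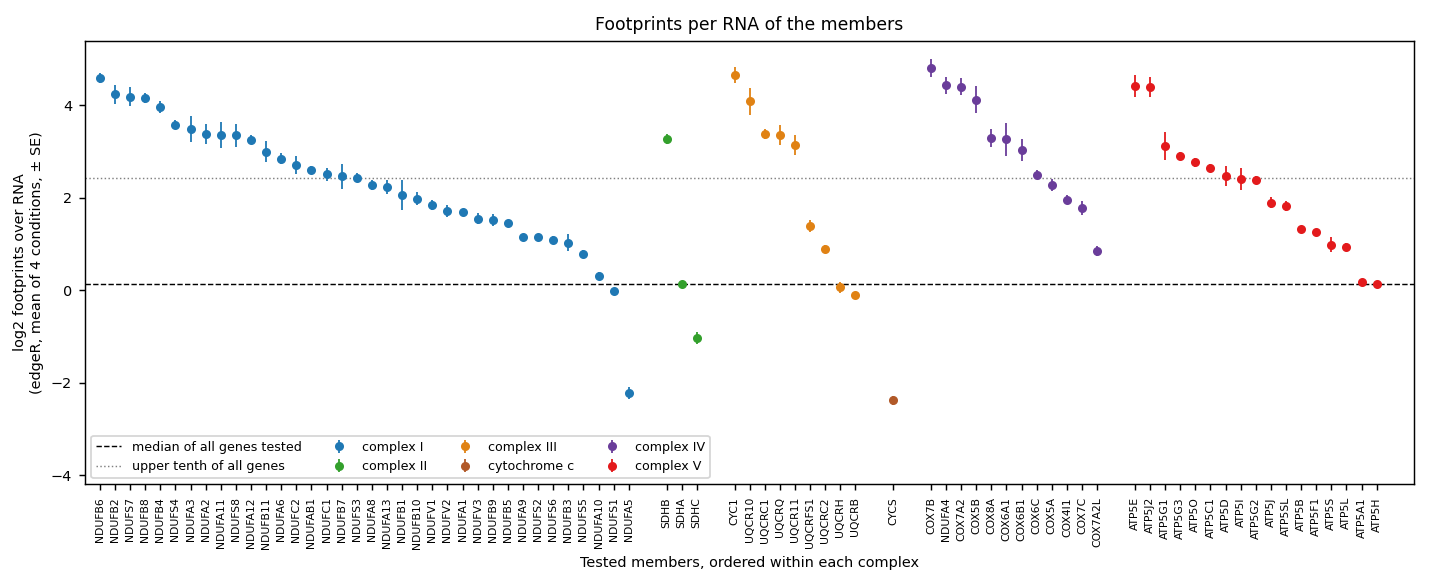
Log2 footprints over total RNA from edgeR (vertical axis, mean of the 4 conditions ± SE) for the 78 tested members, ordered within each complex. The dashed line is the median of all genes tested (0.13) and the dotted line the start of the highest 10% (2.44). Of the tested members, 18 of 36 in complex I, 5 of 9 in complex III and 8 of 12 in complex IV lie above the dotted line, and CYCS and NDUFA5 lie lowest.

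Promoters of 4 members that changed between conditions are shown here. Each window holds 250 bases before and 50 after the gene's start in RefSeq on GRCh38.p14, read along the gene's own strand. They lie at chr7:140696458-140696757 (NDUFB2, plus strand), chr7:25125211-25125510 (CYCS, minus strand), chr7:10940104-10940403 (NDUFA4, minus strand) and chr19:1605413-1605712 (UQCR11, minus strand). Capitals mark the ETS motif CCGGAAG, the site class of GABP (NRF-2), and the core GCGCATG of the NRF1 motif, each on either strand. Both factors are known regulators of respiratory chain genes. The 4 windows are those of NDUFB2 and CYCS, which were lower with the tRNA-Ile-GAU guide, and of NDUFA4 and UQCR11, which changed with the construct.
NDUFB2: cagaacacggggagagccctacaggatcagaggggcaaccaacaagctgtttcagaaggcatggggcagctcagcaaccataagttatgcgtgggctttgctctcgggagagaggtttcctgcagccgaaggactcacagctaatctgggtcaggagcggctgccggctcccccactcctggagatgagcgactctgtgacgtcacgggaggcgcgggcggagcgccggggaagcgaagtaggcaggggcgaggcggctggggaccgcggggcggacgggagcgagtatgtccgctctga
CYCS: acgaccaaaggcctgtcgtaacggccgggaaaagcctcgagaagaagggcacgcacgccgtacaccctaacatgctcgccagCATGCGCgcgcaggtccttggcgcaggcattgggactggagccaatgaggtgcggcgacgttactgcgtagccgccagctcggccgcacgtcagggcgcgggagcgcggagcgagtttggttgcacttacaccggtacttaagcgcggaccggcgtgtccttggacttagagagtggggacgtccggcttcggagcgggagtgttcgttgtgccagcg
NDUFA4: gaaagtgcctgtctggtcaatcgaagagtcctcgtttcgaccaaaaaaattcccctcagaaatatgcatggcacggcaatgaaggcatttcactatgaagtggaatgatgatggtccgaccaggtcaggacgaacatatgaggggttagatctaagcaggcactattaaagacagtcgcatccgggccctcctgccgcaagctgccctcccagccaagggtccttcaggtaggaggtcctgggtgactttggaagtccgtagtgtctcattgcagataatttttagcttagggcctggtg
UQCR11: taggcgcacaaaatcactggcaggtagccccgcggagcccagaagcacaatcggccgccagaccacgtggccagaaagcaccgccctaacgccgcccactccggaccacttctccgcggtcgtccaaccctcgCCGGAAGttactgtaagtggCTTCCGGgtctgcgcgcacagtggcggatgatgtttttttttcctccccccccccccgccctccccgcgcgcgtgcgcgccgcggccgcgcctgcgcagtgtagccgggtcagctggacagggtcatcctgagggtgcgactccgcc

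The UQCR11 window held 2 ETS matches in opposite directions, the CYCS window 1 match of the NRF1 core, and those of NDUFB2 and NDUFA4 neither motif. NDUFA5, which was also lower with the guide, has 3 windows from alternative starts, not printed here, of which 1 held the NRF1 core and none the ETS motif. Over the 83 windows available for 70 members, 21 (25.3%) held the ETS motif, against 10.3% of all 35116 windows. The NRF1 core stood in 18 (21.7%), against 4.43% of all windows. With the bases CGC added after the core, which makes the motif a palindrome, 4 windows (4.82%) held it, those of NDUFB4, NDUFA8, ATP5C1 and SDHD, against 1.24% of all windows. The shorter core was chosen after the counts of the longer form were seen. A match is a stretch of letters and not a measured site.

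The first comparison set the 4 libraries with the tRNA-Ile-GAU guide against the 4 with the eGFP guide. In footprints, NDUFB2 and NDUFA5 of complex I fell and no member rose, so that 2 of 79 members were called, against 2.68% of all 8143 genes tested in either direction and 1.99% lower. The share is near the background. Both members lie on chromosome 7, as do NDUFA4, ATP5J2 and CYCS, and all 5 members on that chromosome had lower footprints with the guide, at a median log2 fold change of -0.64. The 74 members on other chromosomes had a median of -0.03 and 0 calls. Over all 372 tested genes of chromosome 7 the median was -0.39, 343 were lower and 84 were called, while the genes of other chromosomes had a median of 0.02. CAV1, a marker of the line that lies there, fell in footprints with the guide as well (-0.37 ± 0.08, adjusted p = 0.000302). The lower chromosome 7 values were known from earlier results of these data and are no independent support here.

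NDUFB2, an accessory subunit of the complex I membrane arm, had 49.2 and 49.5 CPM of footprints in the double modulation, 61.4 and 50.2 CPM in the knockdown, 82.9 and 87.3 CPM in the overexpression, and 103 and 96.7 CPM in control. All 4 libraries with the guide lay below all 4 without it. The log2 fold change was -0.81 ± 0.16 (SE, n = 4 against 4, adjusted p = 0.000235), and it passed in each of the 8 fits that left out 1 library (adjusted p 0.000258 to 0.0188). NDUFB2 overlaps the antisense gene NDUFB2-AS1, and whether the counting used strand is not given in the sources used here.

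NDUFA5 had 9.63 and 19.2 CPM in the double modulation, 12.04 and 12.2 CPM in the knockdown, 25.7 and 24.5 CPM in the overexpression, and 30.3 and 32.2 CPM in control. The groups did not overlap, on counts of 9 to 19 per library. Its log2 fold change was -1.11 ± 0.31 (adjusted p = 0.0209), and 1 of the 8 fits without a library passed, that without replicate 2 of the double modulation, with an adjusted p of up to 0.179 in the others. The gene overlaps ASB15.

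CYCS had 34.3 and 32.0 CPM in the double modulation, 20.5 and 22.0 CPM in the knockdown, 40.0 and 36.7 CPM in the overexpression, and 42.1 and 49.2 CPM in control. Again every library with the guide was below every library without it, yet the difference was not called. ATP5J2, membrane subunit f of the synthase, had 50.3 and 55.9 CPM in the double modulation, 55.4 and 41.6 CPM in the knockdown, 82.9 and 68.1 CPM in the overexpression, and 80.8 and 62.7 CPM in control. The guides did not overlap there. Its log2 fold change was -0.53 ± 0.17 (adjusted p = 0.0826). In all, 6 members had 4 libraries with the guide below the 4 others, the 4 named and NDUFB6 and ATP5SL, against 4.3% of all genes. ATP5F1, the b subunit of the synthase's stalk, was the 1 member with all 4 above (2.94% of all genes), at 179, 182, 200 and 168 CPM with the guide against 166, 155, 148 and 125 CPM without it.

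**Figure D3:**
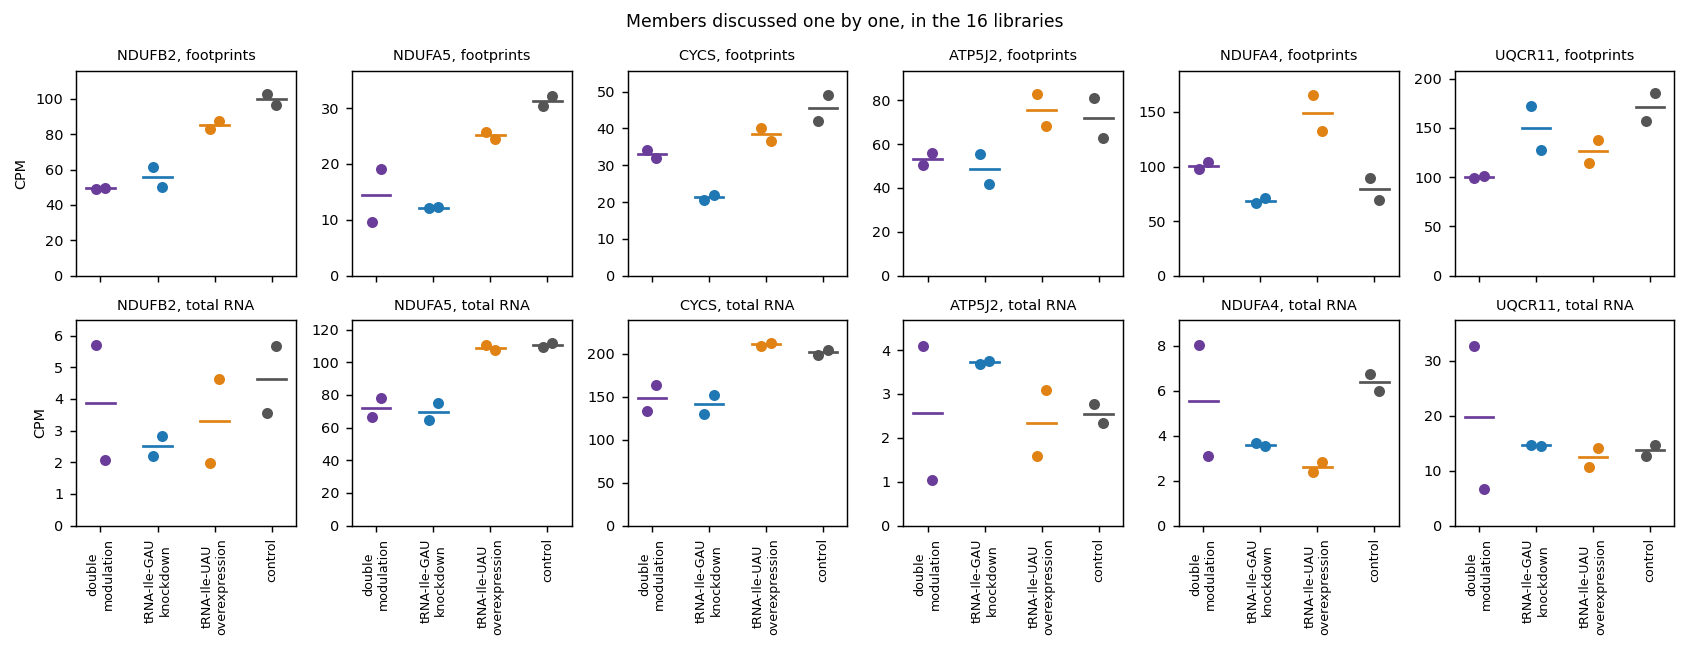
CPM (vertical axis) of the 5 members on chromosome 7 and of UQCR11 in footprints (above) and total RNA (below), for the double modulation, knockdown, overexpression and control. Points are libraries and bars are means of 2 libraries. NDUFB2, NDUFA5, CYCS and ATP5J2 footprints lie lower in both conditions with the tRNA-Ile-GAU guide, and NDUFA4 footprints peak in the overexpression.

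In total RNA, NDUFA5 and CYCS fell with the guide. These were 2 of 79 members, against 1.08% of all 11720 genes tested in either direction and 0.896% lower. Both lie on chromosome 7. Of its 554 genes tested in total RNA, 516 were lower and 80 were called, at a median log2 fold change of -0.37. The genes of other chromosomes had a median of 0.03. NDUFA5 had 66.5 and 78.1 CPM in the double modulation, 64.4 and 74.8 CPM in the knockdown, 110 and 107 CPM in the overexpression, and 109 and 112 CPM in control. CYCS had 133 and 164 CPM in the double modulation, 130 and 152 CPM in the knockdown, 209 and 213 CPM in the overexpression, and 199 and 205 CPM in control. For both, every library with the guide lay below every library without it, as in 5.08% of all genes.

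The log2 fold changes were -0.63 ± 0.09 for NDUFA5 (adjusted p = 0.0165) and -0.51 ± 0.09 for CYCS (adjusted p = 0.0352). Both passed without either double modulation library and in none of the 6 fits without a knockdown, overexpression or control library, where the adjusted p reached 0.146 for NDUFA5 and 0.222 for CYCS. In bulk RNA, fewer cells that express a gene and less RNA per cell cannot be told apart. NDUFB2, NDUFA4 and ATP5J2 had at most 8.02 CPM of total RNA, and their changes with the guide were within their errors (-0.32 ± 0.42 for NDUFB2, 0.15 ± 0.35 for NDUFA4 and 0.35 ± 0.45 for ATP5J2).

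**Figure D4:**
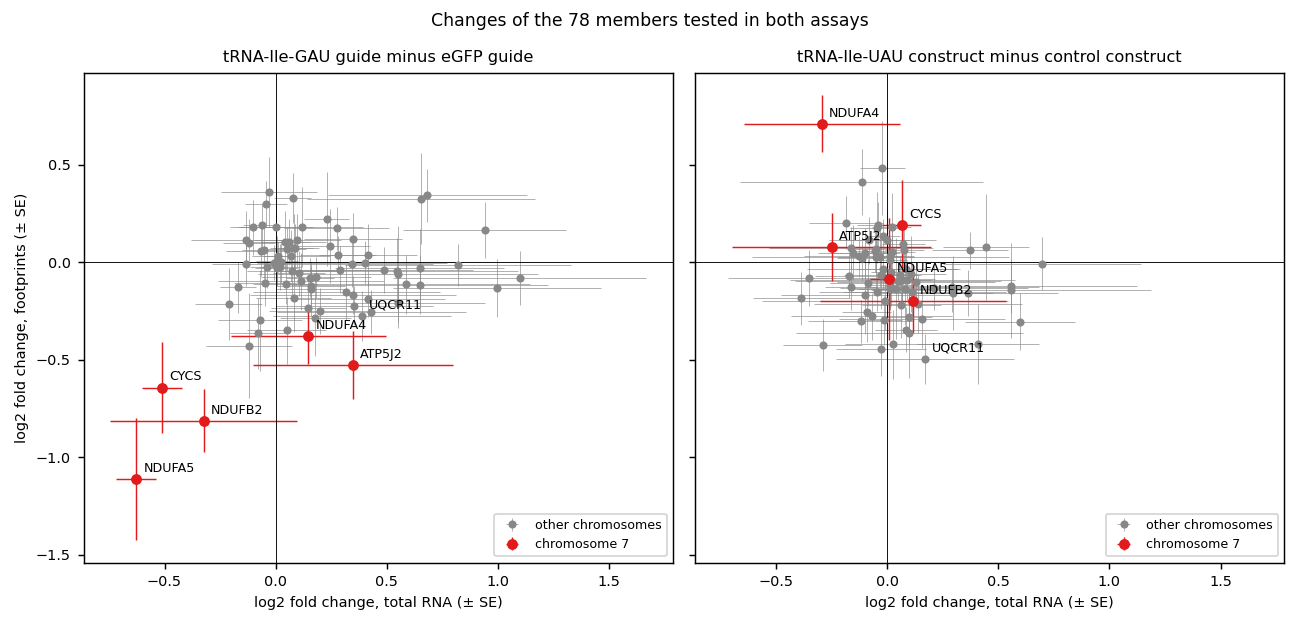
Log2 fold change in total RNA (horizontal axis, ± SE) and in footprints (vertical axis, ± SE) of the 78 members tested in both, for the tRNA-Ile-GAU guide against the eGFP guide (left) and the tRNA-Ile-UAU construct against the control construct (right). Red points are the members on chromosome 7. All 5 lie below 0 in footprints with the guide, and NDUFA4 stands highest with the construct.

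The construct for tRNA-Ile-UAU was compared with the control construct across both guides. In footprints 1 member rose and 1 fell, 2 of 79 against 0.43% of all 8143 genes in either direction, 0.135% higher and 0.295% lower. NDUFA4, a subunit of complex IV first named for complex I, rose. It had 97.4 and 104 CPM in the double modulation against 66.2 and 71.0 CPM in the knockdown, and 166 and 133 CPM in the overexpression against 89.2 and 69.5 CPM in control. All 4 libraries with the construct lay above all 4 without it, as in 1.5% of all genes, and the difference went the same way under both guides. The log2 fold change was 0.71 ± 0.15 (adjusted p = 0.00127). It missed the threshold only without replicate 2 of the control among the 8 fits that left out a library (0.63, adjusted p = 0.0842). Total RNA of NDUFA4 was 8.02 and 3.10 CPM in the double modulation against 3.68 and 3.52 CPM in the knockdown, and 2.37 and 2.84 CPM in the overexpression against 6.73 and 6.01 CPM in control. With the construct its log2 fold change there was -0.29 ± 0.35, within its error.

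UQCR11, a small accessory subunit of complex III, fell. It had 99.6 and 101 CPM in the double modulation against 172 and 127 CPM in the knockdown, and 114 and 138 CPM in the overexpression against 157 and 185 CPM in control. Values were lower with the construct under each guide, although the highest library with the construct (138 CPM) was above the lowest without it (127 CPM). The log2 fold change was -0.50 ± 0.13 (adjusted p = 0.0400), and it passed in 1 of the 8 fits without a library, that without replicate 2 of the knockdown.

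Of the 37 complex I members, 28 had lower footprints with the construct, at a median of -0.13. Over all genes 50.2% were lower, at a median of -0.0015. None of the 37 was called, where 0.43% of all genes were in either direction. Whether complex I as a group differed was not tested. NDUFA6, NDUFB4, NDUFC1 and NDUFS4 had all 4 libraries with the construct below the 4 others, against 1.87% of all genes. In total RNA, NDUFB4, of the membrane arm, had all 4 above the others (1.08% of all genes), at 8.02 and 6.46 CPM in the double modulation and 7.92 and 6.70 CPM in the overexpression, against 3.31 and 5.16 CPM in the knockdown and 5.94 and 4.67 CPM in control. SDHD total RNA had all 4 below (0.751% of all genes). NDUFS4, an accessory subunit of the matrix arm, was at 120 and 89.5 CPM in the double modulation against 153 and 155 CPM in the knockdown, and at 103 and 119 CPM in the overexpression against 123 and 158 CPM in control (-0.42 ± 0.13, adjusted p = 0.177). The 3 tested members of complex II were each higher, by 0.19 to 0.48, and 0 were called. In total RNA the construct gave 0 calls among members, as among all genes (0.0%), with 2 members at an unadjusted p under 0.05 (1.96% of all genes) and 0 called by DESeq2.

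Each modulation was then compared with the control libraries, which these comparisons share. In the double modulation 2 of 79 members fell in footprints and none rose, against 1.93% of all genes in either direction and 1.4% lower. They were NDUFB2 (-1.01 ± 0.22, adjusted p = 0.00212) and UQCR11 (-0.77 ± 0.18, adjusted p = 0.00477), at 49.4 ± 0.210 and 100.1 ± 0.793 CPM in the double modulation against 99.7 ± 4.29 and 171 ± 20.0 CPM in control (SD, n = 2 each). NDUFB2 missed the threshold without replicate 1 of the control (adjusted p = 0.0674) and UQCR11 without replicate 2 of the control (adjusted p = 0.277). Over all 79 members the median was -0.13, with 56 lower, against 0.01 and 49.1% lower over all genes. By complex the medians were -0.15 in complex I (32 of 37 lower), -0.20 in complex IV (8 of 12 lower), -0.09 in complex III, -0.07 in complex V and 0.38 in complex II, where all 3 were higher.

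In the knockdown, NDUFB2 was the 1 member called in footprints (-0.83 ± 0.22, adjusted p = 0.0205), against 1.11% of all genes in either direction and 0.651% lower. Without either control library or either knockdown library it missed the threshold, at an adjusted p of 0.0680 to 0.289. CYCS, at -1.10 ± 0.33, did not pass (adjusted p = 0.0652), though it did without either double modulation library (adjusted p = 0.0482 and 0.0451). Nor did NDUFA5 pass, at -1.35 ± 0.42 (adjusted p = 0.0818). In the overexpression 0 members were called, against 0.0246% of all genes, with 6 of 79 at an unadjusted p under 0.05 (5.02% of all genes) and 0 called by DESeq2. NDUFA4 was the nearest, at 0.88 ± 0.21 (adjusted p = 0.121), and it passed without either double modulation library. COX6C of complex IV was at -0.47 ± 0.17 (adjusted p = 0.709). The interaction, the effect of the construct under the tRNA-Ile-GAU guide minus that under the eGFP guide, gave 0 member calls against 0.0614% of all genes, with 3 members at an unadjusted p under 0.05 (5.83% of all genes) and 0 called by DESeq2. NDUFV2, a core subunit of complex I, had the lowest p (-1.02 ± 0.35, adjusted p = 0.665). For CYCS the interaction was 0.91 ± 0.46 (adjusted p = 0.855).

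In total RNA, the double modulation called 0 of 79 members (0.0683% of all genes), the knockdown 0 (0.0256%), and the overexpression and the interaction 0 (0.0% each). At an unadjusted p under 0.05, the double modulation had 4 members (7.62% of all genes) and the knockdown 3 (6.94%). The overexpression had 2 (1.99%) and the interaction 4 (2.66%). DESeq2 called 0 in each. It gave an adjusted p to only 17 of 86 members in the double modulation and 21 of 86 in the knockdown. The rest could not be called there. NDUFA5 was at -0.62 ± 0.13 in the double modulation (adjusted p = 0.157) and at -0.66 ± 0.13 in the knockdown (adjusted p = 0.162). Without either total RNA library of the double modulation it was called in both, at an adjusted p of 0.0362 and 0.000477 in the double modulation and of 0.000854 and 0.00124 in the knockdown. CYCS was then called in the knockdown too (-0.51 in each fit, adjusted p = 0.00185 and 0.00251). These were the 2 members called in the knockdown in those fits, where 2.07% and 1.97% of all genes were. UQCRC1, core protein 1 of complex III, was at 0.66 ± 0.24 in the double modulation (adjusted p = 0.535), with 55.6 and 32.1 CPM there against 27.7 and 28.4 CPM in control.

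Member values in total RNA depended on the 2 libraries of the double modulation. As log2(CPM + 1) set against the mean of the 8 libraries, the members had a median deviation of 0.32 in replicate 1 and -0.10 in replicate 2, while the median over all genes was 0.00 and 0.01. In replicate 1, 43 of 79 members were above all 6 libraries of the other conditions, against 25.5% of all genes. In replicate 2, 19 of 79 were below all 6, against 17.9% of all genes. Which of the 2 replicates is typical cannot be settled from these data. For complex IV, 11 of 12 members were higher in replicate 1 than in replicate 2. COX5B, the zinc-binding subunit, had 19.8 and 2.58 CPM there, against 7.73 and 6.33 CPM in the knockdown, 3.96 and 5.41 CPM in the overexpression and 5.15 and 2.34 CPM in control.

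Without replicate 2 of the double modulation, 27 members were called with the guide in total RNA (25 higher), 28 in the double modulation (26 higher) and 20 in the interaction (all higher). The calls over all genes were then 15.5%, 15.8% and 4.42%. Without replicate 1, the calls were 3, 4 and 0 members, all lower, among 4.67%, 2.51% and 0.01715% of all genes. In the double modulation 4 members were called in both fits. ATP5D, the delta subunit of the synthase, NDUFS8, a core subunit of complex I, and NDUFA13, an accessory subunit of complex I, were called in opposite directions. ATP5D was at 0.88 without replicate 2 and at -1.09 without replicate 1, NDUFS8 at 1.16 and -1.64, and NDUFA13 at 0.55 and -0.77. NDUFA5 was called lower in both, at -0.74 and -0.51. In footprints the member medians of the 8 libraries stayed within -0.12 to 0.08.

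**Figure D5:**
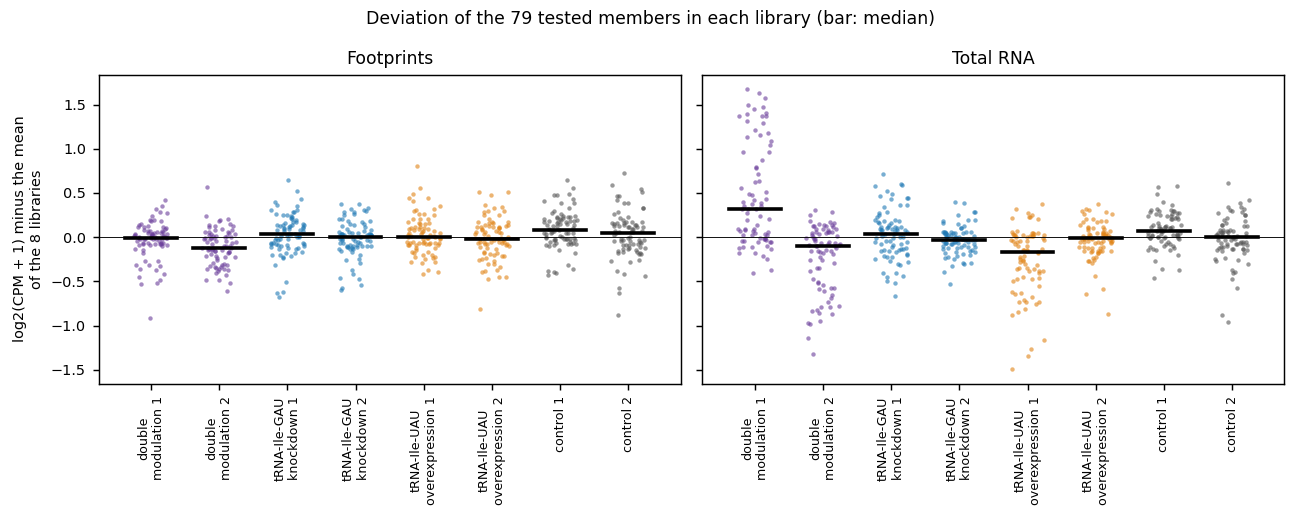
Log2(CPM + 1) minus the mean of the 8 libraries of the assay (vertical axis) for each of the 79 tested members (points), by library, in footprints (left) and total RNA (right). Bars are medians over members. Total RNA replicate 1 of the double modulation lies above the others, at a median of 0.32, and many of its points exceed 1.

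Changes in footprints per RNA were tested as the difference between the footprint and total RNA contrasts. No member was called in any of the 6 comparisons, as no gene was (0.0% of 8012). At an unadjusted p under 0.05 there were 2 members for the guide (4.66% of all genes), 4 for the construct (3.06%), 3 for the double modulation (4.18%), 2 for the knockdown (3.34%), 4 for the overexpression (2.78%) and 5 for the interaction (2.51%). In the double modulation the median over the 78 members was -0.29, with 61 lower, against -0.03 and 53.7% lower over all genes. With the guide it was -0.24, with 58 lower, against -0.01 and 52.3%. Without total RNA replicate 1 of the double modulation these medians were 0.15 and 0.02, and without replicate 2 they were -0.52 and -0.27, with 22 and 19 members called lower, among 7.72% and 5.17% of all genes called in either direction.

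The members with the lowest p in the double modulation were COX5B (-1.90 ± 0.83), UQCR11 (-1.36 ± 0.61) and NDUFS7, a core subunit of complex I (-1.20 ± 0.55), each at an adjusted p of 0.940. They were 0.29, 0.26 and 0.11 without replicate 1. NDUFA4 stood first in the overexpression, at 2.14 ± 0.53 (adjusted p = 0.9999), where its ratio of mean CPM was 57.3 against 12.5 in control. With the guide, ATP5F1 was at 0.34 ± 0.15 and NDUFB6 at -0.46 ± 0.21 (adjusted p = 0.867 each). The genes of chromosome 7 as a whole had a median of -0.02 with the guide on this scale.

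Few other genes of the pathway were called. Of 56 assembly factors, which insert cofactors and join subunits, 37 were tested in footprints and 49 in total RNA, and 0 were called in any comparison of either assay, where at most 2.68% of all genes were. The 12 regulators of mitochondrial biogenesis, among them PPARGC1A, NRF1 and TFAM, gave 0 calls, on 9 tested in footprints and 12 in total RNA. Their footprint medians were -0.13 in the knockdown, -0.15 in the overexpression and 0.28 for the interaction, with medians over all genes within 0.01 of 0. Of 18 genes of import and cristae, 1 was called, in total RNA with the guide, where 0.896% of all genes were called lower. CHCHD3, a part of the complex that shapes cristae, lies on chromosome 7 and fell there (-0.54 ± 0.09, adjusted p = 0.0268). It had 58.6, 62.6, 65.9 and 75.3 CPM with the guide against 92.2, 87.4, 95.4 and 106 CPM without it. None of the 13 subunits encoded in mitochondrial DNA was listed under the symbols sought, such as MT-ND1, so that these subunits were not tested.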

How the data were processed

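Footprints and total RNA were counted in MDA-MB-231 cells grown in DMEM with serum and lysed with cycloheximide, with ribosomes pelleted through sucrose, per the labels. The authors deposited, for each library, unnormalized read counts by gene symbol. The authors used cutadapt 1.17, STAR 2.5.2a, HTSeq and build hg38, per the submitters' processing notes, and the HTSeq version, its settings and the annotation are not given in the sources used here. The deposited footprint files list genes with at least 1 count, and a missing gene was given 0. HTSeq's summary lines were left out of library sizes. HTSeq's line for multiple alignments held 97.0 to 98.8% of its total in footprints and 97.2 to 98.1% in total RNA, none of it assigned to genes. Counts on genes were 0.843 to 2.25% and 0.690 to 1.00%. Symbols were matched to RefSeq tables of GRCh38.p14, 70 members by the current and 20 by an older symbol.

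Libraries were grouped by the assay, guide and construct of their labels. Low genes were removed with filterByExpr (count 10, total 15), and the rest were scaled by TMM and tested with edgeR 4.0.16 in R 4.3.3 by the quasi-likelihood test, on 8 libraries per assay with 4 residual degrees of freedom, or on all 16 with 8 for footprints per RNA. Benjamini-Hochberg adjustment ran over all genes tested, and a gene was called at an adjusted p under 0.05. The biological coefficient of variation was 6.71% in footprints and 14.2% in total RNA. DESeq2 1.42.0, other scaling, no filter, thinned counts, a replicate block, and fits without each library or without chromosome 7 were alternatives. The procedure was tested on simulated data for the double modulation against control. In footprints it called 59 of 96 genes changed 2-fold and 21 of 100 changed 1.5-fold. In total RNA it called 55 of 98 and 22 of 100. In footprints per RNA it called only 8 of 94 and 0 of 100, so that most such changes would be missed there. Errors beside log2 values are standard errors. The members and lists were chosen with earlier results of these data known. Named in the text are members that were called, those with the lowest p in a comparison with few calls, those on chromosome 7, the 5 highest and 5 lowest in footprints per RNA, and members at 0 or that are no subunit. Isoleucine codon content and levels per coding length, which were planned, were not analysed here.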

Additional observations from a re-analysis of the deposited data

How the results depend on the processing

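Footprint counts thinned to 358340 per library left 0 members called for the guide, construct, double modulation and knockdown, with each called member in the same direction (NDUFB2 with the guide at -0.70, adjusted p = 0.0549). DESeq2 called 1 with the guide and 0 with the construct, double modulation or knockdown, and it gave no adjusted p to the 6 of 7 edgeR calls that it did not repeat. Without chromosome 7 genes the footprint calls were 0 for the guide, 1 for the construct, 1 for the double modulation and 0 for the knockdown, total RNA calls with the guide were 0, and members called lower in footprints per RNA were 1, since the others lie there. With no filter on low counts, total RNA calls were 5 for the guide (2.64% of all genes), 5 for the double modulation (1.01%) and 2 for the knockdown (0.538%). NDUFS1 changed sign in footprints per RNA with thinned counts, at 0.0516.

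The labels do not say whether equal replicate numbers pair libraries. Deviations of same-numbered libraries correlated at -0.04 to 0.06 in footprints. In total RNA the range was from -0.44 (double modulation with overexpression) to 0.37 (double modulation with knockdown). These correlations cannot settle whether the numbers pair libraries. With the replicate number as a block, NDUFA4 was called in the footprint overexpression (1 member, adjusted p = 0.0410) and ATP5J2 with the guide (3 members in all, adjusted p = 0.0497), and no other count of member calls changed.

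Without each library in turn, member calls in footprints ran from 1 to 2 (guide, 1.42 to 2.504% of all genes), 0 to 2 (construct, 0.0810 to 0.641%), 1 to 2 (double modulation, 0.406 to 2.01%), 0 to 2 (knockdown, 0.209 to 1.30%) and 0 to 1 (overexpression, 0 to 0.0583%). In total RNA they ran from 0 to 27 (guide, 0.0488 to 15.5%), 0 to 5 (construct, 0 to 1.29%), 0 to 28 (double modulation, 0 to 15.8%), 0 to 2 (knockdown, 0 to 2.07%) and 0 to 20 (interaction, 0 to 4.42%). In footprints per RNA they ran from 0 to 19 (guide, 0 to 5.17%), 0 to 4 (construct, 0 to 0.638%), 0 to 22 (double modulation, 0 to 7.72%) and 0 to 9 (interaction, 0 to 1.05%). The highest counts in total RNA and in footprints per RNA came without a total RNA library of the double modulation. Member medians in footprints ran from -0.18 to -0.0902 (double modulation), -0.0862 to -0.00154 (knockdown), -0.11 to -0.0378 (overexpression) and -0.0659 to 0.06155 (interaction). In total RNA they ran from -0.15 to 0.0764 (construct), -0.19 to 0.28 (double modulation) and -0.0492 to 0.44 (interaction). In footprints per RNA they ran from -0.29 to 0.02115 (guide), -0.18 to 0.11 (construct), -0.52 to 0.15 (double modulation) and -0.46 to 0.0738 (interaction). In the double modulation footprints per RNA of COX5B ran from -2.62 to 0.29, UQCR11 from -2.01 to 0.26 and NDUFS7 from -1.79 to 0.11, and those of NDUFS1 over all conditions from -0.0677 to 0.0158. Where not stated, the cause was not tested. There were 2 libraries a group, and footprint counts of tested members went down to 7 in a library (NDUFB3), so that the lack of a call does not show that a member did not change.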
